A study of Homo sapiens with 4 samples.

Results

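The RNAs described here are long noncoding RNAs whose gene symbol carries the suffix -AS and a number, for antisense, or the suffix -DT, for divergent transcript. They were taken from a list of regions (peaks) that a peak caller called in RNA immunoprecipitated with PRMT5, the arginine methyltransferase that forms symmetric dimethylarginine, against the input RNA of the same cells. A peak was a member where its identifier matched a RefSeq gene with such a symbol on the strand of the peak. The members were 288 of 18993 peaks and 209 of 8490 listed gene identifiers. Of these genes, 163 had an -AS symbol and held 230 peaks, and 46 had a -DT symbol and held 58 peaks. A further 60 peaks of 44 genes had such a symbol but no listed strand, and were kept apart.

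The cells were Jurkat, a human leukemic T cell line. All of them were stimulated for 48 h with PHA, a plant lectin that activates T cells, and were crosslinked with UV light. PRMT5 was immunoprecipitated through a FLAG tag in 2 RIP libraries, and 2 input libraries were made without that step, all with a kit that keeps the strand of the RNA. The list holds 1 pooled value per peak for PRMT5 RIP and 1 for input, in RPM, a read count scaled to a common library size, so no spread between libraries could be computed, no difference below was tested, and the depth behind each value is unknown. An immunoprecipitation without PRMT5 was not analysed here.

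An antisense gene is named after the gene that it crosses or faces on the other strand, which is called its sense partner here. A divergent transcript starts close to the start of its partner and runs away from it, so that both RNAs leave one CpG-rich promoter in opposite directions. Many such RNAs are short-lived and nuclear, whereas some are spliced and stable. Where both strands of a region are transcribed, the level of the antisense RNA can be read only if reads are counted by strand.

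The 5 sequences that follow are the whole stretches between the start of a member and the start of its partner, for the members described below by their highest level or their largest or smallest enrichment that lie apart from the partner and have a stretch of 250 nucleotides or less. They are RefSeq sequences of GRCh38.p14, written 5′ to 3′ on the strand of the member, so that the member starts after the last base and the partner starts, in the other direction, before the first. Capitals mark matches to CCAAT or CCGGAAG, the core of ETS factor sites, on either strand. They lie at chr14:22929377-22929608, plus strand, for PRMT5-DT, at chr16:84116943-84117042, plus strand, for MBTPS1-DT, at chr16:30355309-30355433, plus strand, for CD2BP2-DT, at chr16:69726561-69726726, plus strand, for NQO1-DT, and at chr4:144646020-144646155, minus strand, for HHIP-AS1.
PRMT5-DT: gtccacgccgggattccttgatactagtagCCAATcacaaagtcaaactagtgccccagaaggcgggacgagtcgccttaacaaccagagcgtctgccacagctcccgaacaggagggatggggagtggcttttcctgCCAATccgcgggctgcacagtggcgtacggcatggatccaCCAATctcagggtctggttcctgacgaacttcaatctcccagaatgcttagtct
MBTPS1-DT: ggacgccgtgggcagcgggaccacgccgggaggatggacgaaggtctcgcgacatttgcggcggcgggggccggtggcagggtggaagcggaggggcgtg
CD2BP2-DT: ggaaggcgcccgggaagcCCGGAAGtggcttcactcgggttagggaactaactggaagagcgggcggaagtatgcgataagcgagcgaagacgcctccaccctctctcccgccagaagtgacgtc
NQO1-DT: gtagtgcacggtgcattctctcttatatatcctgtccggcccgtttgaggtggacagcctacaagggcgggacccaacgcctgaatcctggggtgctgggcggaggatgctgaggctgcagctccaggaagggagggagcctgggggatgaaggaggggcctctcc
HHIP-AS1: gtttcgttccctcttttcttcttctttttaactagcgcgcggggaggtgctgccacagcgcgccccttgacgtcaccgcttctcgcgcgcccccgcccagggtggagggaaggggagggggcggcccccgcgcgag

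The stretch of PRMT5-DT, which starts beside the gene of the immunoprecipitated protein, held 3 CCAAT matches, and that of CD2BP2-DT held 1 CCGGAAG match. The other 3 held none of the 5 motifs searched, which were the TATA box motif TATAAA, the CCAAT box, the splice donor motif GGTAAG, the polyadenylation signal AATAAA and the ETS core CCGGAAG, each on both strands. The GC content of the 5 stretches ran from 56.0% in PRMT5-DT to 75% in MBTPS1-DT.

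A second set of sequences comes from places where a member and the opposite strand each had a peak over the same bases. They show what such mirrored bases look like, and each of these 4 is the part of the shared span that lies in the promoter window of the partner, on the strand of the member, from chr3:20186157-20186199, plus strand, for SGO1-AS1, chr11:74493675-74493715, plus strand, for LIPT2-AS1, chr15:79923703-79923741, plus strand, for ST20-AS1, and chr12:111842238-111842277, minus strand, for MAPKAPK5-AS1. Capitals again mark a motif match, of which there was 1, a CCAAT in ST20-AS1. The stretch of SGO1-AS1 lies past the annotated end of that gene, at 20186115, so it is part of the peak but not of the annotated gene.
SGO1-AS1: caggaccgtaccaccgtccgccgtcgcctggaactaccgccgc
LIPT2-AS1: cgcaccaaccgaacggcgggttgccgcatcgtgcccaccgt
ST20-AS1: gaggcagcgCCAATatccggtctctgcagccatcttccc
MAPKAPK5-AS1: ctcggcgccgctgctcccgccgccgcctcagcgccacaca

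Promoters of members, taken as the RefSeq window from 250 bases before to 50 after the most upstream start of each gene, were rich in C and G. The median GC content was 70.0% for the 46 -DT genes and 62.7% for the 163 -AS genes, beside 58.3% for all 27305 genes with a window. The median number of CG pairs per window was 32.5 for -DT genes, 19 for -AS genes and 13 for all genes. CCGGAAG was found in 21.7% of -DT windows (10 of 46) and 9.20% of -AS windows, beside 10.6% of all. TATAAA was found in 4.78% of member windows (10 of 209), beside 12.0% of all, and AATAAA in 11.0%, beside 17.8%. CCAAT was found in 31.6% of member windows, beside 35.7%, and GGTAAG in 8.61%, beside 7.91%. TATAAA and AATAAA can overlap in a sequence, and each was counted on its own.

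The first question was how often a member lay opposite another peak. Of the 288 member peaks, 177 (61.5%) overlapped a peak of the opposite strand by at least 1 base, and 111 did not. Over all 18993 peaks, 18.1% did. The 2 kinds of name differed, since 165 of 230 -AS peaks (71.7%) overlapped such a peak and 12 of 58 -DT peaks (20.7%) did. Among the 192 peaks of other named long noncoding RNAs the share was 38.5%, and among the 11509 peaks of named protein-coding genes 11.6%. At the level of genes, 140 of 209 members (67.0%) had at least 1 such peak, beside 2299 of all 8490 listed gene identifiers.

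**Figure D1:**
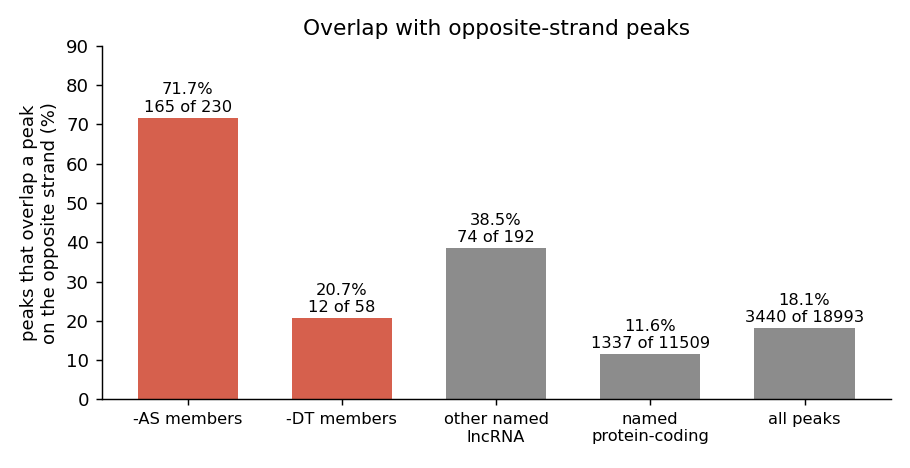
Share of peaks, in percent, that overlap a peak of the opposite strand, for the -AS and -DT members (red) and for other named long noncoding RNAs, named protein-coding genes and all peaks (grey), with the counts above each bar. The -AS bar stands at 71.7% and the -DT bar at 20.7%, beside 18.1% over all peaks.

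The share rests in part on very long peaks. Among the 18993 peaks, 2670 spanned more than 5000 nucleotides (14.1%), and only 16 list more than 1 block, so that a long span may include introns without reads. A single opposite-strand span of 105301 nucleotides covered all 6 peaks of ARRDC1-AS1. With spans over 5000 nucleotides left out on both strands, 113 of 255 member peaks (44.3%) overlapped an opposite-strand peak, beside 13.1% of all peaks of that length. The share was then 52.3% for -AS (104 of 199) and 16.1% for -DT (9 of 56).

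The 2 kinds of gene also differed in their arrangement. In the RefSeq annotation, the spans of 142 of the 163 -AS genes overlapped the sense partner on the other strand, and 13 lay apart from it and diverged. Of the 46 -DT genes, 35 lay apart from the partner and diverged, with a median of 155 nucleotides between the 2 starts and a range from 49 in RB1-DT to 657 in GSK3B-DT. The spans of 9 -DT genes overlapped the partner. For 127 of the 177 overlapped member peaks (71.8%), the opposite-strand peak with the largest overlap belonged to the sense partner. It belonged to another named gene for 21 and had no matched name for 29. Some of those 29 may be of the partner, since identifiers that touch several genes of their strand were left unnamed. For -DT members the partner accounted for 5 of 12.

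Over the 177 pairs, in which several member peaks can share 1 opposite peak, the opposite peak mostly had the higher PRMT5 RIP level. The member had the lower level in 129 pairs, the higher in 40 and the same in 8. RPM is not scaled to the length of a peak, and the excess lay in pairs of unlike spans. The member was lower in 65 and higher in 8 of the 74 pairs that shared under 10% of the longer span. For 58 pairs that shared from 10% to 50% the counts were 43 and 14. They were 12 and 10 of 24 pairs from 50% to 90%, and 9 and 8 of 21 pairs at 90% or more. Over all 177 pairs, the median level was 1.41 RPM for the members and 4 RPM for the opposite peaks. The member was at least 2-fold higher in 15 pairs. The enrichment, taken as the log2 ratio of PRMT5 RIP over input RPM with 0.01 RPM added to both, differed little, with a median of 1.27 for members and 1.36 for opposite peaks. Across the 177 pairs the 2 ratios correlated with a Pearson r of 0.56 and a Spearman rho of 0.62. In the 156 pairs that shared less than 90% of the longer span the values were 0.52 and 0.59. Both peaks of a pair share libraries and bases, and whether they share reads cannot be told from the list, so these correlations are descriptions only.

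The closest pairs carried nearly the same values on both strands. In 21 pairs the overlap covered at least 90% of both spans, and the median absolute difference in PRMT5 RIP level was 0.03 on the log2 scale, beside 1.20 for the 24 pairs that shared from 50% to 90% and 2.07 for the 74 pairs that shared under 10%. Over all peaks of the list, the value was 0.02 for the 151 pairs that shared at least 90% and 0.50 for the 264 that shared from 50% to 90%, so close values at the largest overlap were not particular to members. In 16 of the 21 pairs, from 14 genes and at 0.20 to 22.99 RPM, the difference was at most 0.1. Over all peaks, 1.59% had a partner of this kind on the opposite strand, and 7.29% of members did. The strand from which the reads of these pairs came cannot be told from the list.

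SGO1-AS1 lies opposite SGO1, which protects cohesion at centromeres. Its peak of 175 nucleotides ran past the annotated end of SGO1-AS1. That peak had 1.5 RPM in PRMT5 RIP against 0.44 in input, and the SGO1 peak over the same bases had 1.5 and 0.44 RPM. The 2 strands could not be distinguished by these values. LIPT2-AS1, opposite the octanoyltransferase gene LIPT2, had 4.03 RPM in PRMT5 RIP and 0.78 in input, beside 4.02 and 0.78 for LIPT2. ST20-AS1 had 7.91 and 0.53 RPM, beside 8.05 and 0.55 for ST20. NUMA1-AS1, opposite the spindle pole protein gene NUMA1, had 1.07 and 0.29 RPM, beside 1.07 and 0.30 for NUMA1. The sequences printed above for SGO1-AS1, LIPT2-AS1 and ST20-AS1 lie inside these shared spans.

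Of the 16 pairs with close values, 12 lay opposite the sense partner, 1 opposite another named gene and 3 opposite an unnamed peak. The other named gene was opposite NQO1-DT, which is named for its start beside NQO1, a quinone reductase. Its only peak lay 15447 nucleotides downstream, opposite NOB1, a nuclease of ribosome maturation. The NQO1-DT peak had 22.99 RPM in PRMT5 RIP against 17.84 in input, and the NOB1 peak had 23.16 and 18.06 RPM. HEXIM2-AS2, opposite the P-TEFb inhibitor gene HEXIM2, had 2 such peaks, at 5.32 and 4.70 RPM in PRMT5 RIP beside 5.10 and 4.68 RPM for HEXIM2.

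In the remaining 5 of the 21 pairs the strands differed. PPP1R14B-AS1 had 31.85 RPM in PRMT5 RIP and 10.78 in input, beside 226.03 and 43.50 RPM for PPP1R14B, an inhibitory subunit of protein phosphatase 1. The sense peak was 7.10-fold higher in PRMT5 RIP. A peak of CD27-AS1 had 2.36 and 0.99 RPM, beside 5.02 and 1.87 RPM for an unnamed peak. The other 3 pairs were of RAET1E-AS1, opposite an unnamed gene. RAET1E encodes a ligand of the receptor NKG2D. The RAET1E-AS1 peaks had 0.58, 0.14 and 1.28 RPM in PRMT5 RIP, and the opposite peaks over the same bases had 1.19, 0.76 and 1.89 RPM. The opposite peak was thus 0.61, 0.62 and 0.61 RPM higher, and in input it was 0.42 RPM higher in each of the 3.

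**Figure D2:**
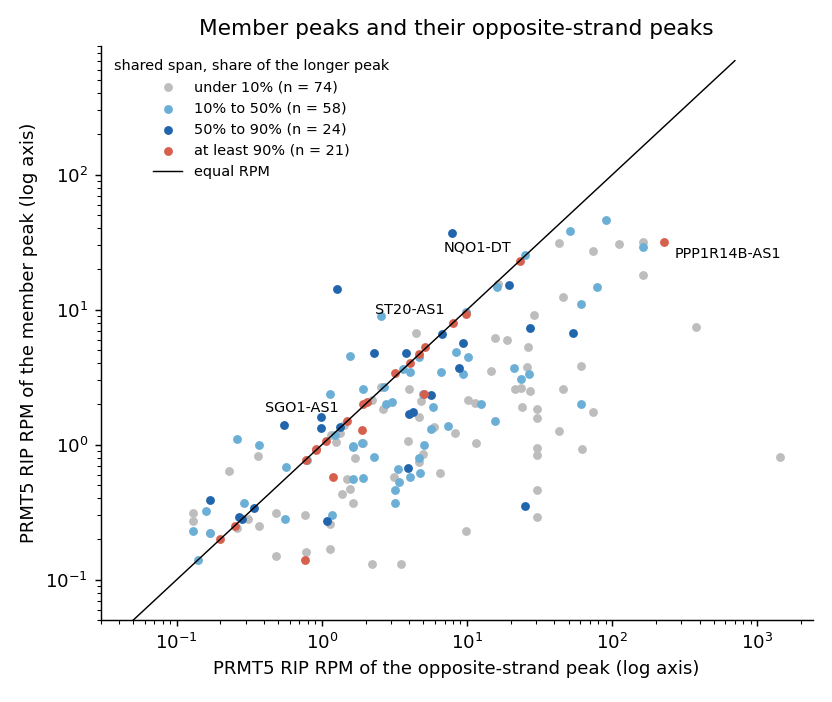
PRMT5 RIP level in RPM of each of 177 member peaks (vertical, log axis) against that of the opposite-strand peak it overlaps most (horizontal, log axis), coloured by the share of the longer peak that both cover. Of the 21 pairs that share at least 90%, 16 lie within 0.1 log2 of the line of equal RPM, and PPP1R14B-AS1 lies far to the right of it.

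The 10 members with the highest PRMT5 RIP level in a single peak all overlapped an opposite-strand peak. PPP1R35-AS1 stood first, with 46.02 RPM in PRMT5 RIP against 7.17 in input, a log2 ratio of 2.68, although its peak lists a further gene identifier. PPP1R35, a centriole protein gene on the other strand, had 90.33 and 28.40 RPM. NDUFB2-AS1 had 38.61 and 8.53 RPM, beside 51.55 and 12.02 RPM for NDUFB2, a subunit of respiratory complex I. ATP2A1-AS1 had 36.90 RPM in PRMT5 RIP, 6.63 in input and a log2 ratio of 2.47, whereas ATP2A1, the calcium pump of fast muscle, had 7.89 and 2.39 RPM. The antisense peak was thus the higher of that pair, 4.68-fold in PRMT5 RIP.

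Of the other members of that group, PPP1R14B-AS1 and NQO1-DT are given above. TMPO-AS1, beside the gene of the nuclear lamina protein thymopoietin, had 31.41 RPM in PRMT5 RIP and 15.90 in input, a log2 ratio of 0.98, and the TMPO peak had 43.22 and 21.75 RPM, a ratio of 0.99. CORO1A-AS1, opposite the leukocyte actin regulator CORO1A, had 25.58 and 13.67 RPM, beside 24.97 and 13.30 RPM for CORO1A. In both pairs the enrichment was close on the 2 strands. PGLS-DT, beside a gene of the pentose phosphate pathway, had 30.80 and 13.39 RPM, beside 111.29 and 55.46 RPM for PGLS. RUSC1-AS1 had 31.81 and 15.95 RPM and overlapped FDPS, the farnesyl diphosphate synthase gene, at 163.58 and 87.27 RPM, not RUSC1. MADCAM1-AS1, named for the mucosal addressin, had 27.17 and 3.82 RPM and overlapped TPGS1, a tubulin polyglutamylase subunit gene, at 73.34 and 14.23 RPM.

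Enrichment over input was common among members. PRMT5 RIP was at least 2-fold over input in 208 of 288 member peaks (72.2%), beside 56.6% of all peaks, and the median log2 ratio was 1.41, beside 1.10 over all peaks. Members had lower input, with a median of 0.375 RPM beside 0.83 RPM over all peaks, and the ratio was higher at low input. Among peaks with input under 0.5 RPM, 145 of 164 members (88.4%) were at least 2-fold over input, beside 75.6% of all peaks. At 0.5 RPM or more, 63 of 124 members (50.8%) were, beside 44% of all peaks. The median log2 ratio of the members at that input was 1.00, beside 0.89 for all peaks. The 2-fold shares above were read with nothing added to the RPM. With 1 RPM added to both values, 14.9% of the 288 members reached 2-fold, and the share of all peaks at that setting was not computed.

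**Figure D3:**
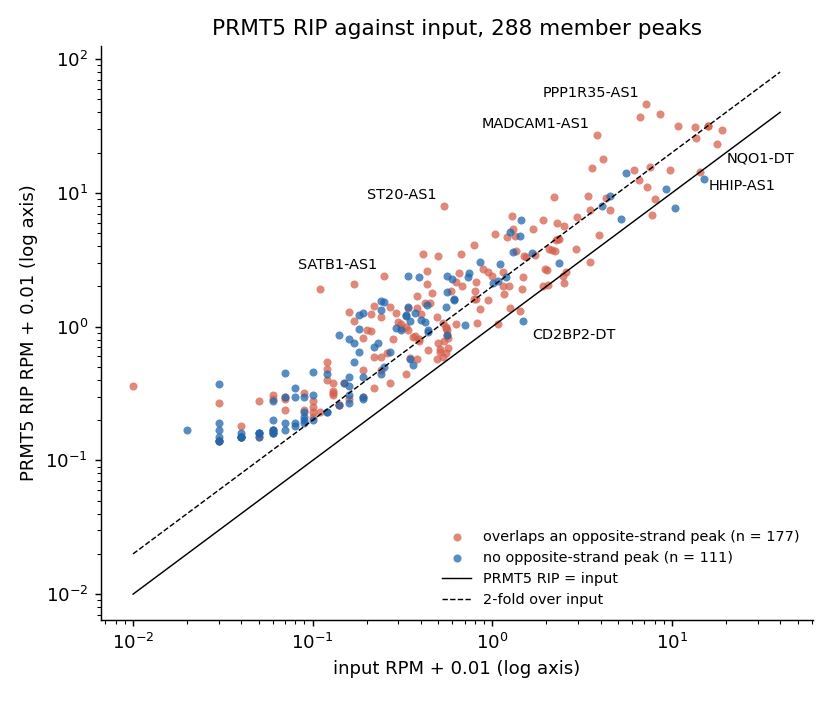
PRMT5 RIP RPM (vertical) against input RPM (horizontal) of the 288 member peaks, with 0.01 RPM added to both and log axes, in red where the peak overlaps an opposite-strand peak and in blue where it does not. The solid line marks equal levels and the dashed line 2-fold enrichment, which 208 peaks reached by RPM with nothing added.

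Among members with at least 0.5 RPM in input, ST20-AS1 had the largest log2 ratio, 3.87, shared with ST20 at 3.85. MADCAM1-AS1 followed at 2.83, PPP1R35-AS1 at 2.68 and ATP2A1-AS1 at 2.47. RNASEH2B-AS1, opposite the gene of an RNase H2 subunit, had 6.73 RPM in PRMT5 RIP, 1.27 in input and a ratio of 2.40. HMGN3-AS1, named for a nucleosome-binding protein, had 3.50 and 0.66 RPM and a ratio of 2.39. LIPT2-AS1 stood at 2.35. COA6-AS1, opposite a cytochrome c oxidase assembly gene, had 4.89 and 1.02 RPM and a ratio of 2.25, and NDUFB2-AS1 stood at 2.18. The sense peaks of this group with a name had ratios from 1.53 for HMGN3 to 3.85 for ST20.

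MBTPS1-DT was the only member of these 10 with no peak on the other strand. It starts beside MBTPS1, the site-1 protease gene, whose start lies 101 nucleotides away in the other direction. Its peak of 375 nucleotides began 12 nucleotides into the gene and had 6.28 RPM in PRMT5 RIP against 1.43 in input, a log2 ratio of 2.13. The highest MBTPS1 peak had 4.62 RPM.

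The smallest ratios fell below 0. PRMT5 RIP was under input in 9 of 288 member peaks (3.13%), beside 3.84% of all peaks. HHIP-AS1, beside the gene of the hedgehog-interacting protein, had 3 peaks, with 7.64, 12.66 and 14.29 RPM in PRMT5 RIP and 10.36, 15.03 and 14.29 RPM in input. None of the 3 stood above input. The peak at 14.29 RPM spanned 6989 nucleotides, most of them before the annotated start of HHIP-AS1, on the side of HHIP. It overlapped 5 peaks of the other strand. The HHIP peak with the largest overlap had 1.27 RPM in PRMT5 RIP against 0.94 in input, and the highest HHIP peak had 3.49 RPM in PRMT5 RIP. The peak on the antisense strand was thus higher than the HHIP peak it overlapped most, in both fractions. How much of its level belongs to HHIP-AS1 cannot be told from the list. CD2BP2-DT, beside the gene of a protein that binds the CD2 tail, had 1.10 RPM in PRMT5 RIP and 1.47 in input. RBM38-AS1, opposite an RNA-binding protein gene, had 2.12 and 2.49 RPM, and NDUFV2-AS1, opposite a complex I gene, had 6.77 and 7.70 RPM.

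PRMT5-DT had 2 peaks. The longer, of 20663 nucleotides, had 3.04 RPM in PRMT5 RIP against 3.49 in input, a log2 ratio of -0.20. The shorter had 2.62 and 2 RPM, a ratio of 0.39. Both lay opposite an unnamed span at 23.60 and 25.03 RPM. PRMT5 itself had 4 peaks, with a highest level of 38.70 RPM and a median log2 ratio of 0.46. The peak caller gave 8 of the 9 members under input an FDR of 0.01 or less, with its own log2 fold changes from 0.50 to 1.24, so its scale differs from that of the RPM values.

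Peaks with and without an opposite-strand peak differed in level. The overlapped members had a median of 1.41 RPM in PRMT5 RIP, 0.54 RPM in input and a span of 341 nucleotides, and the others had 0.64 RPM, 0.18 RPM and 125 nucleotides. The median log2 ratio was 1.27 in the overlapped and 1.63 in the other peaks, a difference of -0.36. The difference was seen at higher input and not at lower. At input under 0.5 RPM, the medians were 1.70 for 82 overlapped peaks and 1.68 for 82 others, a difference of 0.01. At 0.5 RPM or more, they were 0.96 for 95 overlapped and 1.34 for 29 other peaks, a difference of -0.39. With 1 RPM added in place of 0.01 RPM the difference was 0.21 in the other direction, so its direction depends on the value added. Over all peaks, the medians were 1.06 for overlapped and 1.11 for other peaks. The 2 sets of members also differed in name. At 0.5 RPM or more in input, 13 of the 29 other peaks and 9 of the 95 overlapped ones were -DT. At any input, the difference was -0.18 within -AS members and -0.63 within -DT members.

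**Figure D4:**
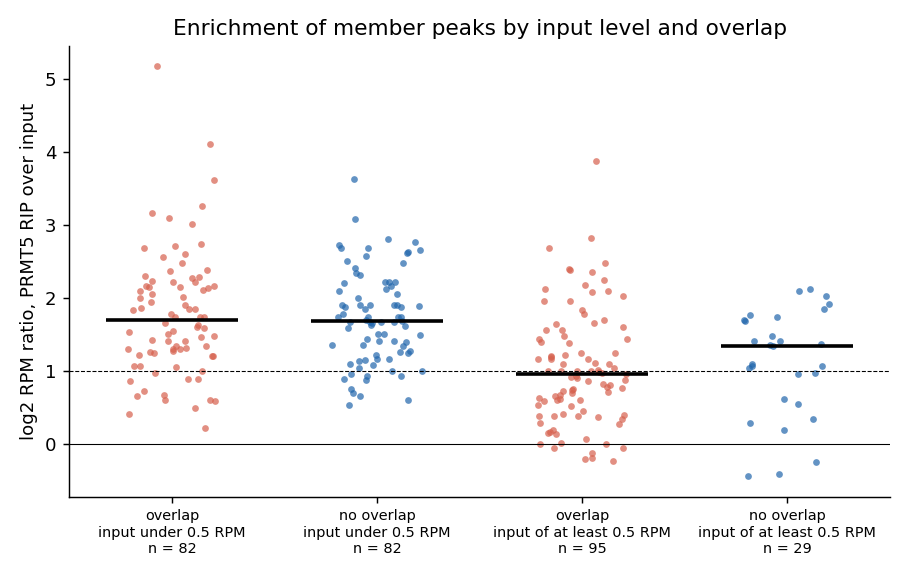
Log2 ratio of PRMT5 RIP over input RPM for each member peak (points) by input level and by overlap with an opposite-strand peak, with the median of each set as a black bar, a solid line at equal levels and a dashed line at 2-fold. The medians are 1.70 and 1.68 at input under 0.5 RPM, and 0.96 and 1.34 at 0.5 RPM or more.

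Within genes the order was the other way. In 11 member genes that had peaks of both kinds, the overlapped peaks had the higher median log2 ratio in 10 and the lower in 1, with a median difference of 0.87. SATB1-AS1 had 3.17 in its overlapped peaks and 1.22 in the other, and MAPKAPK5-AS1 had 2.09 and 1.00. Some of these medians rest on very low input, as in CORO1A-AS1, where a peak at 0.35 RPM in PRMT5 RIP was listed at 0 in input. The other overlapped peak of CORO1A-AS1 had a ratio of 0.90, below the 1.91 of its peak without overlap. The 2 kinds of peak were not compared at like input. The exception was IQCH-AS1, with 0.71 at a peak opposite C15orf61 and 1.87 at the other peak. The highest PRMT5 RIP level was in an overlapped peak in 7 of the 11.

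The 111 peaks without an opposite-strand peak came from 80 genes, and 94 of them (84.7%) were at least 2-fold over input, beside 57.1% of all peaks without an opposite-strand peak. At input under 0.5 RPM, where 82 of the 111 lay, the share was 91.5% for members and 75.5% for all such peaks, and at 0.5 RPM or more it was 65.5% and 43.9%. Only 29, from 27 genes, had at least 0.5 RPM in input. MRPL20-AS1, named for a mitochondrial ribosomal protein gene, was the most abundant in PRMT5 RIP, with 14.15 RPM beside 5.57 RPM in input, a log2 ratio of 1.34. HHIP-AS1, CDK6-AS1 and DHCR7-DT followed at 12.66, 10.65 and 9.45 RPM in PRMT5 RIP, with 15.03, 9.28 and 4.48 RPM in input. Behind MBTPS1-DT, the largest ratios of these 29 were 2.09 in SRRM2-AS1, at 2.38 and 0.55 RPM, and 2.03 in PAXIP1-DT, at 5.12 and 1.25 RPM. INSIG1-DT, beside a regulator of sterol synthesis, stood at 1.92 with 2.26 and 0.59 RPM. These values do not share bases with a listed peak of the other strand.

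Of the 58 peaks of divergent transcripts, 46 (79.3%) were clear of the other strand, close to the 81.9% of all peaks. Those 46 had a median of 0.77 RPM in PRMT5 RIP, 0.195 RPM in input and a log2 ratio of 1.68, and the 65 -AS peaks without an opposite-strand peak had 0.51 RPM, 0.18 RPM and 1.48. The -DT peaks lay near the gene start, with a median distance of 218 nucleotides and 35 of 58 (60.3%) beginning in the first 500 nucleotides and 2 before the gene. For -AS peaks the median distance was 442 nucleotides, 99 of 230 (43.0%) began there and 20 before the gene. Starts before the gene count as negative distances. Over all members, peaks that began in the first 500 nucleotides had a median log2 ratio of 1.60 (n = 134), later ones 1.26 (n = 132), and those that began before the gene 1.36 (n = 22). Their median input was 0.335, 0.37 and 0.965 RPM in the same order, and these ratios were not compared at like input. All 9 peaks with PRMT5 RIP under input were among the later ones.

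The partner of a divergent transcript usually had the higher PRMT5 RIP level. Of the 28 -DT genes whose partner had a peak under its own name, the partner had the higher level in 24. The highest peak of each gene was compared, without regard to the length or number of its peaks. RB1-DT starts 49 nucleotides from the retinoblastoma gene RB1 and had 1.22 RPM in PRMT5 RIP, 0.17 in input and a log2 ratio of 2.77, while the highest RB1 peak had 16.46 RPM and the median ratio of RB1 was 1.22. RPS21-DT, beside a ribosomal protein gene, had 2.10 and 1.00 RPM and a ratio of 1.06, while RPS21 reached 426.72 RPM at a median ratio of 0.37. RNASEH1-DT had 3.55 RPM, beside 38.84 RPM for RNASEH1. MBTPS1-DT, DHCR7-DT, CAMTA1-DT and ZNF236-DT were the 4 that stood above their partners, and for DHCR7, a gene of cholesterol synthesis, the highest peak had 1.97 RPM beside 9.45 RPM in DHCR7-DT. There DHCR7-DT had 1 peak of 3204 nucleotides, whereas DHCR7 was split into 10 peaks.

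Across all 156 members whose partner had a peak under its own name, the highest peak of the partner was higher in PRMT5 RIP in 124 and lower in 30. The median of the highest level was 1.46 RPM for members and 5.10 RPM for partners. The median log2 ratios of these genes were close, at 1.46 for members and 1.34 for partners, and the member had the larger ratio in 88 and the smaller in 65. Where no member peak was overlapped, the medians were 1.70 and 1.34, and the member had the larger ratio in 28 of 40. These members also had the lower levels, at which the ratio is higher.

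From a list of 57 genes of T cell function, chosen with earlier results of these data known, 5 had an antisense member with a peak. How many of the 57 have an antisense gene that could be named was not counted. In RefSeq, 1993 symbols of the -AS or -DT form had a listed strand, beside the 209 member genes. The sense genes were CD27, a costimulatory receptor, SATB1, a chromatin organizer of thymocytes, PIK3CD, the catalytic subunit of PI3 kinase delta, MAPKAPK5, a stress kinase, and ZEB1, a zinc finger repressor. The median of the 5 gene medians of the log2 ratio was 1.55, beside a median of 1.5 over all 209 members.

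SATB1-AS1 had 4 peaks. Its highest peak, which began before the annotated start, had 2.38 RPM in PRMT5 RIP against 0.24 in input, a log2 ratio of 3.26, and the SATB1 peak that it overlapped had 1.14 and 0.26 RPM. The input RPM was thus close while the PRMT5 RIP RPM was higher on the antisense strand. The SATB1-AS1 peak spanned 200 nucleotides, most of them before the annotated start, and the SATB1 peak spanned 719 nucleotides. RPM is not scaled to length, so levels per base were not compared, and a difference between the strands was not tested. The other SATB1-AS1 peaks had 0.26, 0.17 and 0.20 RPM in PRMT5 RIP. The median ratio of the 7 SATB1 peaks was 0.78, and the highest had 7.05 RPM. MAPKAPK5-AS1 had 9.33 and 2.18 RPM over bases that MAPKAPK5 shared at 9.79 and 2.33 RPM, and a second peak with no opposite peak at 0.49 and 0.24 RPM.

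CD27-AS1 had 5 peaks, all opposite unnamed peaks, with PRMT5 RIP levels of 2.36, 0.77, 0.43, 4.76 and 0.81 RPM and input levels of 0.99, 0.53, 0.32, 1.32 and 0.56 RPM. The log2 ratio ran from 0.42 to 1.84 among them. CD27 had no peak under its own name. An identifier stays unnamed where its peaks touch a further gene of the same strand, so the unnamed peaks may be of CD27. ZEB1-AS1 had 2 peaks without an opposite peak, at 0.86 and 0.22 RPM in PRMT5 RIP and 0.13 and 0.11 RPM in input, and the ZEB1 peak had 0.73 RPM. PIK3CD-AS2 had the lowest median ratio of the 5 genes, with ratios of 0.16 at 8.95 and 7.99 RPM and 0.46 at 2.68 and 1.95 RPM.

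Most members had a single peak (156 genes), 36 had 2, 11 had 3 and 6 had at least 4. Beside CD27-AS1 and SATB1-AS1, these were ARRDC1-AS1, FGD5-AS1, MYO7B-AS1 and SLC12A2-DT. The 6 peaks of ARRDC1-AS1 had 0.29 to 1.85 RPM in PRMT5 RIP and log2 ratios from 0.76 to 2.10. FGD5-AS1, named for a guanine exchange factor of the vascular endothelium, had 4 peaks clear of the other strand, at 0.53, 1.07, 0.94 and 0.17 RPM in PRMT5 RIP and 0.16, 0.41, 0.30 and 0.07 RPM in input. All 4 stood above input by similar amounts, with ratios from 1.17 to 1.67. MYO7B-AS1 had 4 such peaks at 0.14 to 1.56 RPM, with ratios from 1.15 to 1.91. SLC12A2-DT, beside the gene of a sodium-potassium-chloride cotransporter, had 1 peak 182 nucleotides into the gene, at 0.16 RPM, and 3 far downstream, the nearest 116400 nucleotides into it, at 0.25, 0.30 and 0.85 RPM.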

How the data were processed

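The authors deposited 1 list of peaks from 2 PRMT5 RIP and 2 input libraries of Jurkat cells, with RPM values pooled over each group. The deposited log2 fold changes, p-values and FDR are the peak caller's and are used only where named. The submitters' processing notes name fastp, HISAT2 and build hg38, and how replicates were pooled and how strand was used in counting are not given in the sources used here. RPM values were rounded to 0.01 and took every step at low levels, so reads and depth could not be recovered.

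Where a peak lists several identifiers, the first was used. Names came from a supplementary gene table, which named no member, and otherwise from RefSeq (GRCh38.p14): an identifier took the symbol of a gene if that was the sole gene on its strand that each of its peaks touched, and if the gene was not the sole match of another identifier. The selection leaves out 1 antisense gene, which is not reported here. Antisense genes that cross another gene of the same strand are left unnamed by this rule. Of the 1711 peaks that the supplementary table named with a gene of listed strand, all lay on the strand of that gene. Promoter sequences were RefSeq windows, matched by symbol for all 209 genes, and 202 began at the annotated gene start.

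The log2 ratio was taken on RPM with a pseudocount of 0.01, and 2-fold was read from RPM without one. Overlap meant at least 1 shared base between spans. The opposite peak with the largest overlap stood for the pair. Members and gene lists were chosen with earlier results of these data known. The genes named were the 10 with the highest PRMT5 RIP RPM, the 10 with the largest and 5 with the smallest log2 ratio at 0.5 RPM or more in input, those with a sense partner on the T cell list, those with at least 4 peaks and the 5 with the largest shared span. Others were named after their values were seen. The functions were checked on simulated peaks. Python 3.11.15, pandas 2.3.3, numpy 2.4.6 and scipy 1.17.1 were used.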

Additional observations from a re-analysis of the deposited data

How the results depend on the processing

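Of 69 alternatives, 40 stayed within the limits set, 26 moved a value beyond them (0.1 for a median log2 ratio, the 95% Wilson interval for a share, which covers counting error only, or 1.5 times for a count) and 3 turned a difference; where the construction of an alternative does not show why, the cause was not tested. Naming by the same-strand gene with the largest overlap gave 445 member peaks. With at least 0.5 RPM in input, 124 peaks of 102 genes were left, 76.6% overlapped an opposite-strand peak, the median log2 ratio was 1.00 and 50.8% were at least 2-fold. The overlap share of 61.5% was 44.3% for peaks of at most 5000 nucleotides, 41.0% with at least 50% of the member covered, 7.29% with at least 90% of both and 67.0% per gene. The difference in median log2 ratio, overlapped minus other, of -0.36 was -0.044 with at least 50% covered and turned to 0.26 with at least 90% of both. A pseudocount of 0.1 RPM gave a median ratio of 1.04, a difference of -0.0058 and 52.1% at least 2-fold, and one of 1 RPM gave 0.42, a turned difference of 0.21 and 14.9%. The peak caller's log2 fold change gave a median of 2.26 and 94.7%. Subsets chosen after seeing the data gave, for -AS members, an overlap share of 71.7% and a difference of -0.18, for -DT members 20.7%, a median of 1.54 and a difference of -0.63, and at input under 0.5 RPM 50%, 1.68, a turned difference of 0.015 and 88.4%. Naming by Ensembl identifier was not run, since the table used here has none. No replicate could be left out. No paired analysis was possible because each group has 1 pooled column. The depth behind low RPM values is unknown.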
